A study of Mus musculus with 4 samples.

Results

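The genes described here encode the tight, adherens and desmosomal junctions that join lung epithelial cells, together with the keratins anchored at desmosomes, polarity proteins that position the junctions and the epithelial splicing factors *Esrp1* and *Esrp2*. They were given as a list of 44 gene symbols, and all 44 were found among the 45706 genes of the count table. Their RNA was counted in E17 left lung lobes of 4 C57BL/6 mice, 2 wild-type (*Myh10*+/+) and 2 homozygous for *Myh10* L458R (*Myh10*-/-). This allele came from chemical (ENU) mutagenesis and changes a single residue in the motor domain of non-muscle myosin heavy chain II-B. Every cell of the animal carries the allele, so effects on epithelium, mesenchyme and other tissues are not separated. In the developing lung the paper reports *Myh10* expression in mesenchymal cells and none in epithelial or endothelial cells. The question was how the transcripts of the junction genes differ between the genotypes, and whether claudins, adherens junction, desmosome and keratin genes do so alike.

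Tight junctions are strands of claudins, occludin and related membrane proteins that seal the space between epithelial cells, and the claudins present set which ions and solutes pass. Adherens junctions couple E-cadherin to the actomyosin cortex through catenins, whereas desmosomes couple desmosomal cadherins to keratin filaments through plakoglobin, plakophilins and desmoplakin. In the fetal lung the same junctions hold airway, type I (AT1) and type II (AT2) alveolar epithelium together while the saccules widen, and cells of each type carry their own set of claudins and keratins.

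Reads assigned to genes came to 23156026 and 19116971 in *Myh10*+/+ lungs 1 and 2, and 27573824 and 32055306 in *Myh10*-/- lungs 1 and 2. Levels are given as CPM, the count of a gene relative to the scaled library total of its lung, and fold changes are *Myh10*-/- over *Myh10*+/+ on the log2 scale with their standard error (SE). A gene was called at an adjusted p-value under 0.05 in the quasi-likelihood test of edgeR, with p-values adjusted by the Benjamini-Hochberg method over the 18763 genes that averaged 5 or more reads per lung. All 44 junction genes passed that minimum. *Myh10* itself was counted at 505 and 504 CPM in *Myh10*+/+ lungs and at 539 and 513 CPM in *Myh10*-/- lungs, and was not called (log2 fold change 0.06, SE 0.06, adjusted p = 0.662), so its count does not check the genotypes of a missense allele. The female transcript *Xist* reached 3914 CPM in the first *Myh10*+/+ lung and 4455 CPM in the second *Myh10*-/- lung, against 1.84 and 4.10 CPM in the other lungs, so each genotype had 1 lung of female and 1 of male pattern.

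The samples had the markers of lung epithelium. The transcription factor *Nkx2-1* was counted at 434 and 454 CPM in *Myh10*+/+ lungs and at 455 and 447 CPM in *Myh10*-/- lungs, and the AT2 gene *Sftpc* at 5812 and 5627 CPM against 3874 and 4748 CPM. Several markers of stratified epithelium were at or near 0. The desmoglein *Dsg3* had no count in any lung, and *Krt5* and the desmocollin *Dsc3* were under the minimum, while *Krt15*, a basal keratin, was at 51.9 and 56.1 CPM in *Myh10*+/+ and 34.6 and 49.4 CPM in *Myh10*-/- lungs and *Krt4* at 2.05 to 2.98 CPM. The junction genes were read in whole lobes, in which the epithelium is mixed with all other tissue.

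Of the 44 junction genes, 8 (18.2%) were lower in *Myh10*-/- lungs and none was higher. Among all tested genes, 1.34% were called lower and 0.298% higher. The 8 genes were the polarity gene *Pard6b*, the keratins *Krt8*, *Krt19* and *Krt7*, the E-cadherin gene *Cdh1*, the desmosome genes *Jup* and *Ppl* and the tight junction gene *F11r*. In a lobe of mixed tissue, fewer epithelial cells and less RNA of these genes in each epithelial cell cannot be told apart. Among the called genes the log2 fold change ran from -0.23 for *F11r* to -0.54 for *Pard6b*, a reduction of 31.2%, and none of the 44 genes changed by a factor of 2. The median log2 fold change of the junction genes was -0.15, against 0.0018 for all tested genes, and 36 of the 44 values were below 0 (49.5% of all tested genes), of which *Dsg2* and *Pard3* were above 0 when scaled by library totals and *Cldn7*, *Cldn9*, *Epcam* and *Crb3* with an offset for GC content and exon length. In 28 of the 44 genes both *Myh10*-/- lungs lay below both *Myh10*+/+ lungs, and in 2 genes above them, compared with 24.3% and 23.9% of all tested genes. At an unadjusted p under 0.05, 20 genes were lower and 1, *Cldn6*, was higher, compared with 9.02% and 7.52% of all tested genes. DESeq2 called 10 lower and none higher, compared with 2.25% and 0.74% of the 11487 genes to which it gave an adjusted p. With a threshold of 0.1, 14 were lower, against 2.52% of all tested genes. The count of lower genes was 5 without *Myh10*+/+ lung 1, whereas without *Myh10*-/- lung 2 there were 15 lower genes and 1 higher gene.

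**Figure D1:**
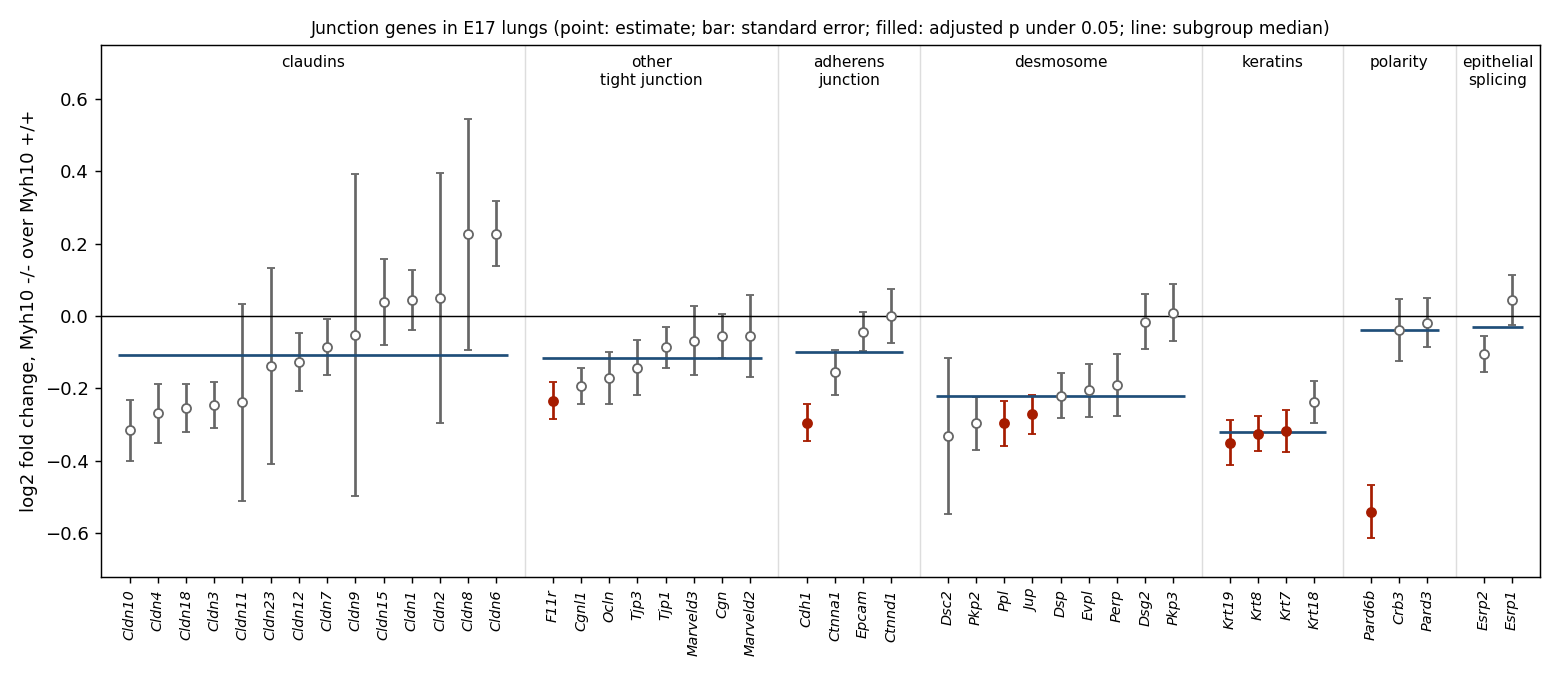
Log2 fold change (*Myh10*-/- over *Myh10*+/+, 2 lungs each) of the 44 junction genes by subgroup; points are estimates, bars standard errors, filled points genes with an adjusted p under 0.05, and horizontal lines subgroup medians. The 4 keratins lie together between -0.35 and -0.24, whereas the claudins spread from -0.32 to 0.23 with no filled point.

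All 4 keratins had lower values in both *Myh10*-/- lungs than in both *Myh10*+/+ lungs, as did 24.3% of all tested genes. Of the 4, 3 were called lower, compared with 1.34% of all tested genes. Simple epithelia assemble filaments from type II keratins (*Krt7*, *Krt8*) paired with type I keratins (*Krt18*, *Krt19*), and desmosomes are their anchoring points. *Krt8* was counted at 170 and 171 CPM in *Myh10*+/+ lungs and at 134 and 139 CPM in *Myh10*-/- lungs (log2 fold change -0.33, SE 0.05, adjusted p = 0.00984). *Krt19* had 237 and 238 CPM in *Myh10*+/+ lungs and 173 and 200 CPM in *Myh10*-/- lungs (-0.35, SE 0.06, adjusted p = 0.0196). In both genes the *Myh10*+/+ lungs were within 1 CPM of each other and *Myh10*-/- lung 1 was the lowest lung. *Krt7* had 288 and 283 CPM against 215 and 244 CPM (-0.32, SE 0.06, adjusted p = 0.0208), again lowest in *Myh10*-/- lung 1. *Krt18*, the usual partner of *Krt8*, had 141 and 143 CPM against 114 and 127 CPM. Its genotypes did not overlap, but with a log2 fold change of -0.24 (SE 0.06, adjusted p = 0.0691) it was not called. Thus 3 of 4 keratins fell, with a subgroup median of -0.32, and the calls of *Krt7*, *Krt8* and *Krt19* were made in each of the 15 alternative fits (highest adjusted p 0.0420, 0.0332 and 0.0273). The number of *Krt8* reads per *Krt18* read, a ratio that needs no scaling between lungs, was 1.20 and 1.19 in *Myh10*+/+ lungs and 1.17 and 1.09 in *Myh10*-/- lungs. For *Krt7* per *Krt19* it was 1.21 and 1.19 against 1.25 and 1.22. The *Krt8* transcripts hold 1884 stretches of 75 bases, as long as a read, and 442 of them also occurred in transcripts of other genes, mainly the pseudogene *Krt8-ps*. Reads that aligned to several places were not counted, so the level of *Krt8* is uncertain.

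Of the 9 desmosome genes 2 fell, *Jup* and *Ppl*. Plakoglobin (*Jup*), which links desmosomal cadherins to desmoplakin and also sits in adherens junctions, had 219 and 201 CPM in *Myh10*+/+ lungs and 177 and 171 CPM in *Myh10*-/- lungs (log2 fold change -0.27, SE 0.05, adjusted p = 0.0288). Periplakin (*Ppl*), a plakin that ties keratin filaments to the membrane, had 122 and 113 CPM against 91.4 and 100 CPM (-0.30, SE 0.06, adjusted p = 0.0379). The genotypes did not overlap in either gene, and the *Myh10*+/+ lungs differed more from each other than they did for the keratins. Desmoplakin (*Dsp*), the main linker to keratin, was at 109 and 102 CPM against 94.2 and 86.7 CPM, with a log2 fold change of -0.22 (SE 0.06, adjusted p = 0.105), and was not called. Plakophilin 2 (*Pkp2*), which binds desmoplakin, was at 31.7 and 33.1 CPM against 25.5 and 27.2 CPM (-0.30, SE 0.07, adjusted p = 0.0714). The genotypes of *Dsp* and *Pkp2* did not overlap. Envoplakin (*Evpl*), the partner of periplakin, had a log2 fold change of -0.21 (adjusted p = 0.183) and the tetraspan protein gene *Perp* one of -0.19 (adjusted p = 0.294), and *Pkp2*, *Evpl* and *Perp* were not called. The desmosomal cadherins were not called. Desmocollin 2 (*Dsc2*), counted in 62 to 76 reads per lung, had a log2 fold change of -0.33 with an SE of 0.22, and desmoglein 2 (*Dsg2*) one of -0.02 with a 95% interval from -0.18 to 0.15 (0.0048 with library totals). Plakophilin 3 (*Pkp3*) was at 0.01 (95% interval -0.16 to 0.18). In all, 2 of 9 desmosome genes were called, 7 of 9 had both *Myh10*-/- lungs below both *Myh10*+/+ lungs (24.3% of all tested genes) and the subgroup median was -0.22. Without *Myh10*+/+ lung 1, *Jup* (-0.21, adjusted p = 0.217) and *Ppl* (-0.24, adjusted p = 0.242) were no longer called.

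Of the 4 adherens junction genes E-cadherin fell. *Cdh1*, the cadherin that binds neighbouring epithelial cells, had 388 and 369 CPM in *Myh10*+/+ lungs and 303 and 313 CPM in *Myh10*-/- lungs (log2 fold change -0.30, SE 0.05, adjusted p = 0.0178), a reduction of 18.5% with no overlap. Without *Myh10*+/+ lung 1 the value was -0.26 and no longer called (adjusted p = 0.107). α-catenin (*Ctnna1*), which connects the cadherin complex to actin and is also present outside epithelium, had the highest level per length of the subgroup, 590 and 563.7 CPM against 511 and 525 CPM, and was not called (-0.16, SE 0.06, adjusted p = 0.229). p120 catenin (*Ctnnd1*), which stabilizes cadherins at the membrane, was at 70.6 and 77.8 CPM against 77.6 and 70.9 CPM (log2 fold change 0.0009, SE 0.07), with overlapping genotypes. It shares 4482 of its 7319 exon bases with *Gm28635*, and reads overlapping several genes were not counted, so its value is uncertain. *Epcam*, an adhesion protein found throughout simple epithelia, was counted at 144 and 151 CPM in *Myh10*+/+ lungs and at 148 and 139 CPM in *Myh10*-/- lungs. Its genotypes overlapped, and the 95% interval of its log2 fold change ran from -0.16 to 0.07 (estimate -0.04, adjusted p = 0.738). The subgroup median was -0.10, with 1 of 4 genes called.

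None of the 14 claudins was called by edgeR, and 2 were called lower by DESeq2. At an unadjusted p under 0.05, 4 claudins were lower and 1 was higher, beside 9.02% and 7.52% of all tested genes, so that the single higher claudin is near the background. Both *Myh10*-/- lungs lay below both *Myh10*+/+ lungs in 8 claudins and above them in 2, *Cldn6* and *Cldn15*, beside 24.3% and 23.9% of all tested genes. *Cldn18*, the claudin of the alveolar epithelium, had the highest level per annotated exon length of all 44 genes. It was counted at 617 and 594 CPM in *Myh10*+/+ lungs and at 485 and 531 CPM in *Myh10*-/- lungs (log2 fold change -0.25, SE 0.07, adjusted p = 0.0844). *Cldn3*, which tightens the barrier, had the lowest adjusted p of the claudins, with 101 and 108 CPM against 84.9 and 91.9 CPM (-0.25, SE 0.06, adjusted p = 0.0780). *Cldn10* was at 59.3 and 66.4 CPM against 47.5 and 53.5 CPM (-0.32, SE 0.08, adjusted p = 0.0877). All 3 genes lay above the threshold, with genotypes that did not overlap. *Cldn10* and *Cldn18* were called by DESeq2 (adjusted p = 0.0480 and 0.00643), and *Cldn3* and *Cldn10* with the robust option of edgeR (0.0459 and 0.0409). Across the 15 alternative fits, *Cldn10* was called lower in 8, *Cldn3* in 4 and *Cldn18* in 4. *Cldn4*, another sealing claudin, had a log2 fold change of -0.27 (adjusted p = 0.124), *Cldn12* -0.13, *Cldn7* -0.09 and *Cldn1* 0.04.

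For *Cldn6*, a claudin of embryonic epithelia, both *Myh10*-/- lungs lay above both *Myh10*+/+ lungs. Its levels were 48.9 and 48.7 CPM in *Myh10*+/+ and 62.4 and 52.0 CPM in *Myh10*-/- lungs (log2 fold change 0.23, SE 0.09, adjusted p = 0.225), and it was not called. Without *Myh10*-/- lung 2 the value was 0.36 and called (adjusted p = 0.00849), and without *Myh10*-/- lung 1 it was 0.09 (adjusted p = 0.731). The remaining claudins were sparse, and for the 5 with an SE above 0.2 a difference of this size was not detectable. *Cldn15* was counted in 148 to 261 reads per lung (log2 fold change 0.04, SE 0.12), *Cldn8* in 40 to 99 reads (0.23, SE 0.32), and *Cldn11* (-0.24, SE 0.27), *Cldn23* (-0.14, SE 0.27), *Cldn2* (0.05, SE 0.35) and *Cldn9* (-0.05, SE 0.45) in at most 43 reads. The median of the 14 claudins was -0.11, and 9 of 14 values were below 0.

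Among the other tight junction genes, *F11r* alone was called. It encodes JAM-A, an immunoglobulin-like adhesion molecule of the tight junction, and had 168 and 175 CPM in *Myh10*+/+ lungs and 141 and 151 CPM in *Myh10*-/- lungs (log2 fold change -0.23, SE 0.05, adjusted p = 0.0474). The value lay just under the threshold, and the gene was called in 8 of the 15 alternative fits. Among those that lost the call were DESeq2 size factors, library totals (adjusted p = 0.0552), the fit without genes of chromosomes X, Y and MT (0.0550) and those without *Myh10*+/+ lung 1 (0.115), *Myh10*+/+ lung 2 (0.270) or *Myh10*-/- lung 1 (0.0675). Its log2 fold change in the 15 alternative fits lay between -0.28 and -0.19. Paracingulin (*Cgnl1*), a cytoplasmic protein of tight and adherens junctions, had 161 and 153 CPM against 138 and 137 CPM (-0.19, SE 0.05, adjusted p = 0.0786). Occludin (*Ocln*) had a log2 fold change of -0.17 (adjusted p = 0.260) and ZO-3 (*Tjp3*) one of -0.14 (adjusted p = 0.376). ZO-1 (*Tjp1*), the scaffold under the claudin strands, which endothelial and mesenchymal cells also express, was at 501 and 475 CPM against 468 and 451 CPM (-0.09, 95% interval -0.21 to 0.04). Cingulin (*Cgn*) was at -0.06, *Marveld3* at -0.07 and tricellulin (*Marveld2*) at -0.06, each with overlapping genotypes. For *Cgn*, 757 of 4942 windows of the transcript also occurred in *BC021767*, so its level is uncertain. All 8 values were below 0 and the median was -0.11.

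**Figure D2:**
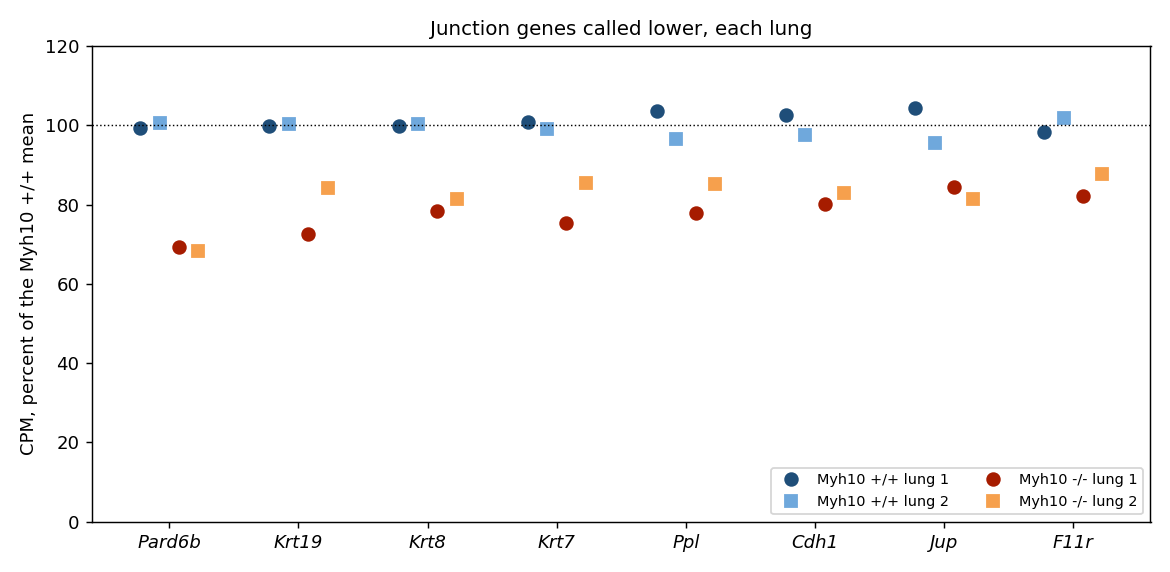
CPM of the 8 called junction genes in each lung as a percentage of the mean of the 2 *Myh10*+/+ lungs (circles, lung 1; squares, lung 2). The *Myh10*+/+ lungs lie close to 100% and both *Myh10*-/- lungs lie below them in all 8 genes.

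*Pard6b* had the largest reduction of the 44 genes. It encodes a PAR6 scaffold that joins PAR3, atypical protein kinase C and CDC42 in the complex that defines the apical domain and positions tight junctions. It was counted at 55.6 and 56.3 CPM in *Myh10*+/+ lungs and at 38.8 and 38.1 CPM in *Myh10*-/- lungs (log2 fold change -0.54, SE 0.07, adjusted p = 0.00771). The replicates of each genotype differed by less than 1 CPM. The 15 alternative fits gave values between -0.55 and -0.48 and all called the gene (highest adjusted p 0.0196). The other polarity genes were not called. *Crb3*, the epithelial Crumbs protein and the gene with the highest level per length of this subgroup, was at 36.7 and 39.5 CPM against 34.6 and 39.4 CPM (-0.04, 95% interval -0.23 to 0.15), with overlapping genotypes. *Pard3*, the direct partner of PAR6, was at 71.7 and 68.1 CPM against 69.3 and 68.8 CPM (-0.02, 95% interval -0.17 to 0.13; 0.0015 with library totals), and its genotypes also overlapped. Whether *Pard6b* differed from *Pard3* or *Crb3* in its change was not tested. The splicing factors that set epithelial isoforms of junction and adhesion genes were not called. *Esrp1* had 77.2 and 71.4 CPM against 79.2 and 74.1 CPM (0.04, SE 0.07), and *Esrp2* had 148 and 140 CPM against 133 and 135 CPM (-0.11, SE 0.05, adjusted p = 0.325), with no gene of this pair called by DESeq2 or at an unadjusted p under 0.05.

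Set side by side, the share called was 3 of 4 for keratins, 2 of 9 for desmosome genes, 1 of 4 for adherens junction genes, 1 of 8 for other tight junction genes, 1 of 3 for polarity genes, 0 of 14 for claudins and 0 of 2 for the splicing factors, beside 1.34% called lower among all tested genes. The medians, in the same order, were -0.32, -0.22, -0.10, -0.11, -0.04, -0.11 and -0.03. Relative to the *Myh10*+/+ mean, the median keratin was at -0.38 in *Myh10*-/- lung 1 and -0.24 in *Myh10*-/- lung 2, and the median desmosome gene at -0.24 and -0.23. The median claudin was at -0.14 and -0.16, and the median adherens junction gene at -0.09 and -0.11. The keratin medians therefore lay below the claudin medians in both *Myh10*-/- lungs, while the *Myh10*+/+ lungs were within 0.05 of 0 in these 4 subgroups. Differences between subgroups were not tested. Precision differed too, as 6 of the 14 claudins and *Dsc2* had levels under 10 CPM. With an offset for each gene's GC content and length, the claudin median was -0.06 and the adherens junction median -0.06, and the keratin median was -0.25. With that offset the polarity median was -0.0031, and the splicing median changed sign to 0.011. The median GC content was 56.7% for keratins and 52.5% for claudins, compared with 49.4% for all tested genes.

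Levels were compared between genes as CPM per kilobase of annotated exon, using the mean of the *Myh10*+/+ lungs. *Cldn18* led with 136, followed by *Krt19* with 128, *Krt18* with 99.0, *Ctnna1* with 89.8, *Krt8* with 87.1, *Cldn3* with 83.3 and *Cdh1* with 82.7. *Epcam* stood at 67.3, *F11r* at 64.4 and *Tjp1* at 62.5. *Krt7* stood at 40.6 over an annotated exon length of 7049 bases, which holds exons of several transcripts, so its level per length may be understated. *Jup* led the desmosome genes with 32.6, well above *Perp* with 19.4, *Ppl* with 17.1 and *Dsp* with 10.9. Among the claudins, *Cldn18* and *Cldn3* were followed by *Cldn6* with 28.4, *Cldn10* with 24.3, *Cldn4* with 20.2 and *Cldn7* with 19.7, and *Cldn2* was the lowest of the 44 genes with 0.237. In *Myh10*-/- lungs *Cldn18* was at 114, *Krt19* at 101, *Krt18* at 84.0, *Ctnna1* at 80.6, *Cldn3* at 70.2, *Krt8* at 69.5 and *Cdh1* at 67.4.

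**Figure D3:**
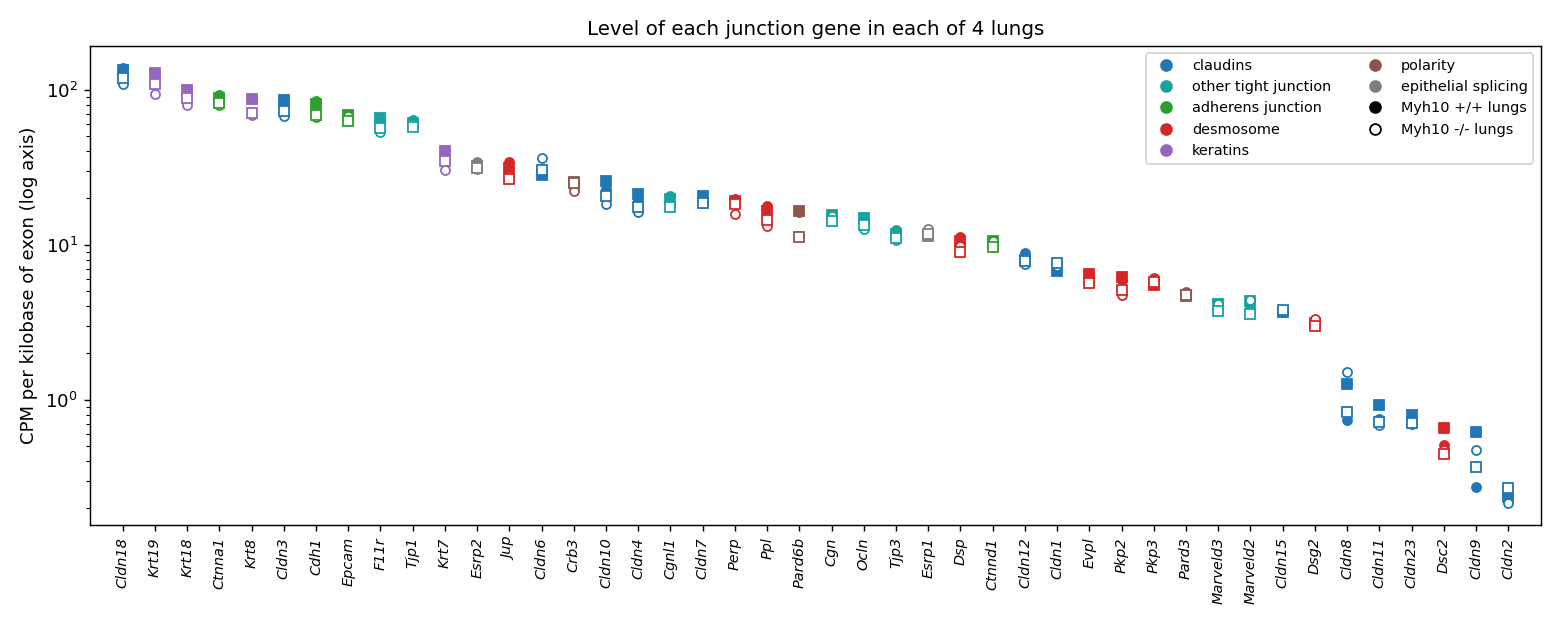
CPM per kilobase of annotated exon (log axis) of the 44 junction genes in each of 4 lungs, ordered by the mean of the *Myh10*+/+ lungs; filled symbols are *Myh10*+/+ lungs, open symbols *Myh10*-/- lungs, circles lung 1 and squares lung 2. *Cldn18* and *Krt19* have the highest levels, and the 6 genes at the right end, *Cldn8* to *Cldn2*, lie near or below 1 CPM per kilobase.

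The called genes lie on 6 chromosomes of GRCm38. *Krt7* (ENSMUSG00000023039, chr15:101411043-101430313, plus strand) and *Krt8* (ENSMUSG00000049382, chr15:101996698-102004482, minus strand) are 566 kb apart, and *Krt18* begins 23.7 kb beyond *Krt8* with no other annotated gene between them. *Krt19* (ENSMUSG00000020911, chr11:100140810-100148665, minus strand) is 220 kb from *Jup* (ENSMUSG00000001552, chr11:100368958-100397763, minus strand). The others are *Cdh1* (ENSMUSG00000000303, chr8:106603351-106670246, plus strand), *F11r* (ENSMUSG00000038235, chr1:171437535-171464603, plus strand), *Ppl* (ENSMUSG00000039457, chr16:5086291-5132421, minus strand) and *Pard6b* (ENSMUSG00000044641, chr2:168081004-168101203, plus strand). No exon of these 8 genes overlaps another gene. *Cldn4* and *Cldn3*, 39.3 kb apart on chromosome 5, were at -0.27 and -0.25. *Cldn6* and *Cldn9*, 138 bp apart on chromosome 17, were at 0.23 and -0.05, the latter with an SE of 0.45 from at most 19 reads per lung, and *Esrp2* and *Cdh1*, 466 kb apart on chromosome 8, were at -0.11 and -0.30. Differences between neighbours were not tested. Exons of 8 other junction genes overlap a gene on the opposite strand. The strand setting of the counting is unknown, and if strand was ignored, reads in the shared bases would not have been counted. These bases number 499 in *Dsp*, 330 in *Dsg2*, 219 in *Esrp2*, 127 in *Esrp1*, 95 in *Ctnna1*, 40 in *Tjp3*, 40 in *Cldn3* and 14 in *Crb3*.

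Promoters of the junction genes, called or not, were read for 3 motifs in the RefSeq table of GRCm38.p6, which covers 250 bases before and 50 bases after each start and held 39 promoters of 28 of the 44 genes, matched by symbol, 5 of them called. Letters were searched on both strands. CACCTG, the E-box bound by the Zeb and Snail repressors of epithelial genes, was found in 20 of the 39 promoters (51.3%), compared with 20.2% of all 32851 promoters. GGGCGG, the GC box of the Sp family, was found in 26 (66.7%), compared with 35.7%. AACNGGTT, bound by Grainyhead-like factors, was found in 1 (2.56%), that of *Cgn*, compared with 2.09%. The table of all promoters includes genes of every kind, and the shares were not tested. By subgroup, CACCTG was found in 3 of 3 keratin, 7 of 10 other tight junction, 4 of 5 polarity, 1 of 2 desmosome and 1 of 3 adherens junction promoters, and in 4 of 16 claudin promoters (25%). Some genes have several promoters, and counted by gene, 4 of 11 claudins (36.4%) held it, compared with 22.6% of all genes. GGGCGG was found in 1 of 3 keratin, 8 of 10 other tight junction, 4 of 5 polarity, 2 of 2 desmosome, 1 of 3 adherens junction and 10 of 16 claudin promoters, and by gene in 9 of 11 claudins (81.8%), compared with 38.2% of all genes. The 250 bases upstream of the start follow for *Krt8*, *Krt18*, *Krt7*, *Jup*, *F11r* and *Pard6b*, 5 called genes and the partner of *Krt8*, so that the motifs can be seen in place, with CACCTG or its reverse complement CAGGTG, and GGGCGG or its reverse complement CCGCCC, in capitals. The start used for *Krt7* lies 1360 bases and that for *Krt8* 140 bases inside the longest annotated extent of the gene.
Krt8, chr15:102004343-102004592, minus strand: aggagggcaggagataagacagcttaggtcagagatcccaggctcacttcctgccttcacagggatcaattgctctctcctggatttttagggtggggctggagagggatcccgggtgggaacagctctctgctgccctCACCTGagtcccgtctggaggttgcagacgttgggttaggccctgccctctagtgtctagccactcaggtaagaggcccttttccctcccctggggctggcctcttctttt
Krt18, chr15:102027966-102028215, plus strand: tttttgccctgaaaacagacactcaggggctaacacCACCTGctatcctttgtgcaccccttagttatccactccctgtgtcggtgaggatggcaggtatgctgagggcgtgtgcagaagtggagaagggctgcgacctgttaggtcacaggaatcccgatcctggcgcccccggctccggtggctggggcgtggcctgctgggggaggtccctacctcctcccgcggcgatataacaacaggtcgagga
Krt7, chr15:101412153-101412402, plus strand: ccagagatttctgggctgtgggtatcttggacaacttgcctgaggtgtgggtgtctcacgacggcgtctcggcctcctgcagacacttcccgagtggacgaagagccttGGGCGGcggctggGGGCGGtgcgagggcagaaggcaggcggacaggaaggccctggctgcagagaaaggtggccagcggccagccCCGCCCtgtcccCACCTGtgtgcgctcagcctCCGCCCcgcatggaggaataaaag
Jup, chr11:100397791-100398040, minus strand: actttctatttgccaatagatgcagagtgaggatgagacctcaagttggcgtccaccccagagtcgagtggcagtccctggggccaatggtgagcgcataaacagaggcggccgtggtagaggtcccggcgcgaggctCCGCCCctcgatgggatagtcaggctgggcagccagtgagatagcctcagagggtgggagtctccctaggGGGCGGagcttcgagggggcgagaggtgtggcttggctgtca
F11r, chr1:171437311-171437560, plus strand: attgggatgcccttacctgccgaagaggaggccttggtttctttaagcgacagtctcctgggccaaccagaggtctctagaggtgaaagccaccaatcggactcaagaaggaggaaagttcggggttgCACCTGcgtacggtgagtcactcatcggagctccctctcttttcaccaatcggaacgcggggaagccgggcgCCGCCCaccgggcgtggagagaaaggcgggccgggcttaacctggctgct
Pard6b, chr2:168080754-168081003, plus strand: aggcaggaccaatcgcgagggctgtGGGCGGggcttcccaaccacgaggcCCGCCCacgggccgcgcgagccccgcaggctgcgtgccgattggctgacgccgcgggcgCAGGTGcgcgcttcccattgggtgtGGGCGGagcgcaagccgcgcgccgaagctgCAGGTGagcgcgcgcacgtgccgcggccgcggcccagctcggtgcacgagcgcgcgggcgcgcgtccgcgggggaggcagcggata

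In these windows *Krt8* and *Krt18* each held 1 CACCTG and no GGGCGG, *Krt7* held 1 and 4, *F11r* held 1 and 1, *Pard6b* held 2 and 3, and *Jup* held no CACCTG and 2 GGGCGG. Matches of letters do not show that a factor binds there.

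Of 100 further genes of claudins, tight and adherens junctions, polarity complexes, desmosomes, hemidesmosomes and intermediate filaments, 76 were tested, with a median log2 fold change of -0.05. Among these, 2 (2.63%) were lower and none was higher, near the 1.34% and 0.298% of all tested genes. At an unadjusted p under 0.05, 17 were lower and 1 was higher (9.02% and 7.52% of all tested genes). DESeq2 called 2 lower and none higher, compared with 2.25% and 0.74% of the genes to which it gave an adjusted p. *Rab25*, an epithelial GTPase of apical recycling, had 56.0 and 57.4 CPM in *Myh10*+/+ lungs and 42.4 and 45.4 CPM in *Myh10*-/- lungs (-0.37, SE 0.07, adjusted p = 0.0326). *Cldn5*, the claudin of endothelium, had 116 and 123 CPM against 87.4 and 101 CPM (-0.34, SE 0.07, adjusted p = 0.0379). With adjusted p-values between 0.05 and 0.1, and named after their values were seen, the polarity gene *Llgl2* was at -0.23 (adjusted p = 0.0575) and the multi-PDZ scaffold *Mpdz* at 0.19 (adjusted p = 0.0934). Of 10 other claudins only 3 were tested, and of 19 other adherens junction genes, among them β-catenin and the cadherins of other tissues, none was called by edgeR or DESeq2, with 4 lower at an unadjusted p under 0.05.

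Markers of the cell types that carry these junctions were read beside them. Among all tested genes, 1.34% were called lower, and 9.02% were lower at an unadjusted p under 0.05. Of 10 AT1 markers 9 were lower, and their summed level was 4683 and 4479 CPM in *Myh10*+/+ lungs and 3340 and 3816 CPM in *Myh10*-/- lungs. The most abundant, *Cav1*, which endothelium also expresses, was not called (-0.05), whereas *Ager* had 708 and 686 CPM against 420 and 514 CPM (-0.58, adjusted p = 0.00997), and *Aqp5* (-1.23, adjusted p = 0.00897) and *Rtkn2* (-0.63, adjusted p = 0.00441) also fell. Of 10 AT2 markers 8 were lower, with sums of 9532 and 9063 CPM against 6386 and 7531 CPM. The most abundant, *Sftpc*, was not called (-0.41, adjusted p = 0.173), and *Sftpb* (-0.48, adjusted p = 0.00961), *Sftpa1* (-0.57, adjusted p = 0.00592) and *Sftpd* (-1.06, adjusted p = 0.00441) fell. *Abca3* was also lower (-0.26, adjusted p = 0.0458). For mutant lungs the paper reports lower LAMP3 and AT1 markers, but more AT2 cells and higher expression of *Sftpa*, *Sftpc* and *Abca3*. The stage of its measurements may differ, and the reason for the opposite direction of these 3 genes was not tested. In both lists the sum was lowest in *Myh10*-/- lung 1, the lung in which 23 of the 44 junction genes and all 4 keratins were lowest, as were 30.6% of all tested genes. The medians of these lists, -0.45 and -0.42, lay below that of any junction subgroup. Of 5 club cell markers 2 were lower, *Scgb1a1* (-1.36, adjusted p = 0.00897) and *Cyp2f2* (-0.46, adjusted p = 0.00897), with sums of 831 and 1016 CPM against 676 and 776 CPM. The most abundant, *Scgb3a2*, was not called (-0.36, adjusted p = 0.147), and the median of the 5 markers was -0.46. Leaving out each lung gave 7 to 9 lower AT1 and 6 to 9 lower AT2 markers, and DESeq2 called 5 and 7. Of the club cell markers 4 were lower at an unadjusted p under 0.05, DESeq2 called 1, and 4 were called without *Myh10*+/+ lung 1 and 3 without *Myh10*-/- lung 2. The part of these cell types in the values of the junction genes was not tested.

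Of 16 markers shared by lung epithelium 4 were lower, with sums of 1165 and 1181 CPM against 1098 and 1088 CPM. Their median log2 fold change was -0.19, beside -0.15 for the junction genes. Of the 16 values 14 were below 0, compared with 49.5% of all tested genes. In 12 of them both *Myh10*-/- lungs lay below both *Myh10*+/+ lungs, compared with 24.3% of all tested genes. Of all tested genes 1.34% were called lower, and 9.02% were lower at an unadjusted p under 0.05. *Elf3* (-0.42, adjusted p = 0.0196), the protease inhibitor gene *Spint1* (-0.38, adjusted p = 0.0311) and the protease gene *Prss8* (-0.26, adjusted p = 0.0336) fell, and *Spint2* was the other gene called. At an unadjusted p under 0.05, 8 of the 16 were lower, and 2 were called without *Myh10*+/+ lung 1 and 2 without *Myh10*+/+ lung 2. The most abundant, *Nkx2-1*, was at 0.02 (95% interval -0.09 to 0.14). None of 6 ciliated markers was called, led by *Foxj1* (-0.26, adjusted p = 0.121), with 4 lower at an unadjusted p under 0.05 and none by DESeq2. Their sums were 199 and 218 CPM against 192 and 185 CPM, and their median was -0.26. None of 5 neuroendocrine markers was called by edgeR, by DESeq2 or at an unadjusted p under 0.05, and their sums were 8.62 to 10.4 CPM, led by *Calca* (-0.20). Of 9 basal or squamous markers 6 were tested and none was called, with 1 lower at an unadjusted p under 0.05 and none by DESeq2. Their sums of 56.3 and 61.4 CPM against 40.4 and 53.6 CPM came almost wholly from *Krt15* (-0.36, adjusted p = 0.182), while *Krt5* and *Krt14* stayed under 1 CPM.

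Tissues outside the lung epithelium were read in the same way. Among all tested genes, 1.34% were called lower and 49.5% had a log2 fold change below 0. At an unadjusted p under 0.05, 9.02% of all tested genes were lower and 7.52% higher. DESeq2 called 2.25% of the genes to which it gave an adjusted p lower. The mesothelium, which also contains simple keratins, had 1 of 7 markers lower, its most abundant, *Msln* (207 and 224 CPM against 129 and 169 CPM, -0.53, adjusted p = 0.0196), with sums of 359 and 394 CPM against 275 and 326 CPM and a median of 0.02. None of 10 mesenchyme markers was called, with 1 lower at an unadjusted p under 0.05 and none by DESeq2. They had a median of -0.01, sums of 5548 and 5691 CPM against 5518 and 5372 CPM, and *Col3a1* as the most abundant (0.01). Endothelium had 1 of 10 markers lower, *Cldn5*, with a median of -0.13, sums of 2087 and 2087 CPM against 1919 and 1894 CPM, and *Cdh5* as the most abundant (-0.09). All 10 values were below 0, 6 were lower at an unadjusted p under 0.05, and none was called without *Myh10*+/+ lung 2 and 2 without *Myh10*-/- lung 1. Of 7 leukocyte markers the most abundant, *Lyz2*, which AT2 cells also express, was the only one called (-0.44, adjusted p = 0.0293), with sums of 304 and 282 CPM against 222 and 258 CPM. Of 7 erythroid genes, *Alas2* (-0.53, adjusted p = 0.0293) and *Hba-a2* (-0.41, adjusted p = 0.0475) were lower, *Hbb-bs* was the most abundant (-0.22) and the sums were 4261 and 5349 CPM against 3763 and 4278 CPM. Of 5 tested cardiac muscle genes 4 were lower, among them *Myh6* (-0.73, adjusted p = 0.0117), *Myl7* (-0.65, adjusted p = 0.0127) and *Tnnt2* (-0.57, adjusted p = 0.0275), with *Actc1* as the most abundant (-0.41, adjusted p = 0.0575) and sums over the 6 listed genes of 207 and 267 CPM against 166 and 152 CPM. DESeq2 called none of the mesothelium, leukocyte or erythroid markers and 5 of the cardiac muscle genes. At an unadjusted p under 0.05, 2 mesothelium, 3 leukocyte and 3 erythroid markers and 5 cardiac muscle genes were lower and 1 erythroid gene was higher. Without *Myh10*+/+ lung 2 none of the erythroid and 2 of the cardiac muscle genes were called. Without *Myh10*-/- lung 1 the erythroid count was 1, and without *Myh10*-/- lung 2 it was 5 and the mesothelium count 2. Cardiac muscle also contains *Dsp*, *Jup*, *Pkp2* and *Dsg2*. The part of these tissues in the values of the junction genes was not tested.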

How the data were processed

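RNA was sequenced from the left lung lobe of 4 E17 mice, 2 *Myh10*+/+ and 2 *Myh10*-/-. The values deposited by the authors are raw counts. The authors used Reaper for trimming, STAR 2.4.0a for alignment to GRCm38 and featureCounts 1.5.1 for exonic counts, without reads that overlapped several genes or mapped to several places, and whether strand was used is not stated. Groups come from the sample labels. Each lung is a separate animal, and the 2 lungs per genotype limit precision.

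Counts were scaled with TMM and tested with edgeR 4.0.16 in R 4.3.3 (glmQLFit with robust = FALSE, glmQLFTest) on genes averaging 5 or more reads per lung, and the code was tested on simulated data. SE is the absolute log2 fold change over the square root of F. CPM use TMM-scaled totals. Positions, exon lengths and GC content come from GENCODE vM21, in which 45143 of the 45706 gene IDs were found.

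The members and lists were chosen with earlier results of these data known. Every member is named. Values in each lung are given for called members, for the member of each subgroup with the highest level per length and, where none was called, for that with the lowest adjusted p, for others with an adjusted p under 0.1 and for some more. Called genes of the further lists and the most abundant marker of each list are named, up to 4 per marker list. Some items of the further lists are not reported here.

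The alternatives were DESeq2 size factors, library totals, no filter, filterByExpr, robust = TRUE, DESeq2 1.42.0, the replicate block, an offset for GC content and exon length (loess span 0.3) alone and with the block, leaving out chromosomes X, Y and MT, a threshold of 0.1 and leaving out each lung. A crossed block was added after seeing the data.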

Additional observations from a re-analysis of the deposited data

How the results depend on the processing

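*Krt7*, *Krt8*, *Krt19* and *Pard6b* were called lower in all 15 alternative fits. DESeq2 size factors and library totals each called 7 of the 8 lower junction genes, as did the replicate block with the GC and length offset, without *Ppl*. The number of lower junction genes was 14 with a threshold of 0.1, 15 without a filter, 14 with the replicate block and 5 to 15 on leaving out a lung (0 to 1 higher). A lung left alone in its genotype is assumed to vary like the other genotype. The median of the 44 genes was -0.13 with library totals and -0.16 to -0.15 on leaving out a lung. Lower claudins numbered 3 with a threshold of 0.1, 3 without a filter, 2 with robust = TRUE, 2 by DESeq2, 2 with the block, 2 without X, Y and MT genes and 0 to 4 on leaving out a lung, with 0 to 1 higher. Their median was -0.055 with the GC and length offset, -0.054 with that and the block, and -0.16 to -0.065 on leaving out a lung. Lower genes among the other tight junction genes numbered 2 with a threshold of 0.1, 0 with DESeq2 size factors, 0 with library totals, 2 without a filter, 2 with the block, 0 without X, Y and MT genes and 0 to 1 on leaving out a lung. Their median was -0.095 with library totals, -0.082 with the GC and length offset, -0.081 with that and the block, and -0.14 to -0.11 on leaving out a lung. Adherens junction genes had 0 to 1 lower on leaving out a lung and medians of -0.080 with library totals, -0.058 with the offset, -0.058 with offset and block, and -0.11 to -0.084 on leaving out a lung. Desmosome genes had 4 lower without a filter, 4 with the block, 1 with block and offset, and 0 to 4 on leaving out a lung, with medians of -0.20, -0.20 and -0.20 under library totals, offset, and offset with block, and -0.24 to -0.19 on leaving out a lung. On leaving out a lung the keratin median was -0.38 to -0.24, the polarity median -0.13 to -0.022 and the splicing median -0.077 to 0.017. Of the further junction genes 5 were lower with a threshold of 0.1, 7 without a filter, 5 with the block, 1 with block and offset and 1 to 5 on leaving out a lung. Higher ones numbered 1, 1 and 1 with that threshold, no filter and the block, and 0 to 3 on leaving out a lung. The number of all tested genes called lower was 473 with a threshold of 0.1, 688 without a filter, 466 with the block and 175 to 875 on leaving out a lung. Higher genes numbered 223 with that threshold, 111 with library totals, 474 without a filter, 135 with robust = TRUE, 85 by DESeq2, 244 with the block, 114 with the offset, 110 with offset and block, 90 without X, Y and MT genes and 31 to 768 on leaving out a lung. Of the lung epithelium markers 1 was lower with block and offset. Values near 0 that were not called changed sign. With the offset, and with offset and block, the log2 fold changes were -0.044 and -0.042 for *Cldn1*, 0.0039 and 0.0040 for *Cldn7*, 0.027 and 0.023 for *Cldn9*, 0.014 and 0.013 for *Epcam*, and 0.048 and 0.046 for *Crb3*. With library totals they were 0.0048 for *Dsg2* and 0.0015 for *Pard3*. On leaving out a lung they ran from -0.043 to 0.14 for *Cldn1*, -0.13 to 0.20 for *Cldn2*, -0.25 to 0.64 for *Cldn8*, -0.57 to 0.61 for *Cldn9*, -0.21 to 0.096 for *Marveld2*, -0.13 to 0.0019 for *Marveld3*, -0.11 to 0.0029 for *Cgn*, -0.068 to 0.071 for *Ctnnd1*, -0.089 to 0.0050 for *Epcam*, -0.086 to 0.060 for *Dsg2*, -0.061 to 0.089 for *Pkp3*, -0.13 to 0.051 for *Crb3*, -0.056 to 0.020 for *Pard3*, -0.012 to 0.10 for *Esrp1*, -0.010 to 0.056 for *Nkx2-1* and -0.021 to 0.046 for *Col3a1*. The labels and the paper's methods name no pairing of the lungs by replicate number. The correlation of same-number deviations was -0.214 over 18763 genes and -0.0187 over the 18114 outside X, Y and MT. Lungs of the same number had unlike *Xist* levels, and each genotype gives only 1 difference. The correlation therefore cannot show whether same-numbered lungs shared a litter or batch. The crossed block, which pairs the lungs of like *Xist* level and was chosen after seeing the data, gave 8 lower junction genes, among them 1 claudin and 0 other tight junction genes, so that *F11r* was not called, and 95 higher genes in all. The cause of these differences was not tested.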
